A study of Mus musculus with 18 samples.

Results

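Of the 18 brains in the series, 6 carried the 482N1 lung cancer model, and their libraries (replicates 7 to 11 and 13) differed in the level of the genes for MHC class II antigen presentation. Each library was scored by the mean of log2(CPM + 1) of Cd74, H2-Aa, H2-Ab1 and H2-Eb1, where CPM is the count scaled to a common library total, and the 2 lowest libraries were chosen by these measured values. Every other gene was then set against the score over the 6 lung libraries, and the lowest 2 were set against the 4 others. All brains were from mice with the genotype WT, each injected with 40000 tumour cells and taken on day 10, and the tissue around the tumour was resected for poly(A)+ RNA-seq. The treatment label puts the abbreviation SAC before the day and does not spell it out, and the labels used here give no age. The other 12 libraries were 6 of the breast cancer line EO771-BrM3 (replicates 14 to 19) and 6 of the melanoma line B16-F10-BrM4 (replicates 1 to 6). No tumour-free brain was among them. The series' design gives 6 brains per model, so that each library is 1 brain, and each model rests on 1 cell line.

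MHC class II molecules are pairs of an alpha and a beta chain that show peptides from taken-up protein to CD4+ T cells. Cd74, the invariant chain, guards the groove on the way to the endosome, where H2-DM loads the peptide. The transactivator Ciita sits on a DNA-bound complex of RFX, CREB and NF-Y and sets how much of these genes is made, and interferon gamma from T and NK cells switches Ciita on. In the brain few cells make class II molecules at rest, and microglia and incoming myeloid cells make them in inflammation.

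Promoter stretches of genes that moved together are shown here because each holds a short motif known from this pathway: the Y box of class II genes (CTGATTGG, bound by NF-Y), the interferon-stimulated response element (TTTC, any 2 bases, TTTC) and the gamma-activated site (TTCNNNGAA). Each line gives the 120 bases before a start site listed by RefSeq on GRCm38.p6, 5′ to 3′ on the gene's strand, with the motif in capitals. The stretches are chr17:34287824-34287943 on the minus strand for H2-Aa, chr17:34305747-34305866 on the plus strand for H2-Eb1, chr3:142620543-142620662 on the plus strand for Gbp2 and chr11:53769894-53770013 on the plus strand for Irf1.
H2-Aa: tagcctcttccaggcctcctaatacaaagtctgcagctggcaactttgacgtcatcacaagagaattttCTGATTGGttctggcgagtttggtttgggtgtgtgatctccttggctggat
H2-Eb1: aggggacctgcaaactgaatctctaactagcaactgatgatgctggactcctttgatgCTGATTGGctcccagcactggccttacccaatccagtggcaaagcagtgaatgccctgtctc
Gbp2: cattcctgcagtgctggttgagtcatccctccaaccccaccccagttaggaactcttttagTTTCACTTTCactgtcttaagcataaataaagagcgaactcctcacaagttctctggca
Irf1: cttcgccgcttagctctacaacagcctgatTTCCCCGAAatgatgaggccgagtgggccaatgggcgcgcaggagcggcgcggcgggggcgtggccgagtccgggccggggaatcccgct
The motifs begin 51, 62, 59 and 90 bases before the printed start site of H2-Aa, H2-Eb1, Gbp2 and Irf1. Irf1 has 2 listed start sites, and the one shown was picked because the motif lies before it. Of the 413 genes counted below as going with the score, 288 had a promoter in the table. Within 250 bases before a listed start site, on either strand, 62 of the 288 (21.5%) held the response element, against 3.28% of the 11705 genes with a promoter and a mean of at least 1 CPM and 2.98% of all 32851 promoters. The gamma-activated site was in 39 (13.5%), against 7.12% of those genes and 7.02% of all promoters. The Y box was in 13 (4.51%), against 6.12% and 3.83%. The gamma-activated site reads the same on both strands, and a match is a run of letters, not a shown binding site.

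Because the lung libraries were ordered by their own values, everything along the score within them is a description with no test. The score was 4.90 in replicate 10, 5.20 in 8, 6.50 in 13, 7.75 in 11, 7.81 in 9 and 8.65 in 7, and values below follow this order. Replicates 10 and 8 were the 2 lowest, and the step from 8 to 13, the libraries just inside and just outside the split, was 1.30. The means of the 2 sides lay 2.63 apart, against an SD of 1.52 over the 6. In breast the score ran from 4.93 to 7.66, with replicates 14, 15 and 16 at 7.18 to 7.66 and 17, 18 and 19 at 4.93 to 5.73. In melanoma 5 libraries lay between 2.25 and 2.88 and replicate 1 at 7.50.

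**Figure D1:**
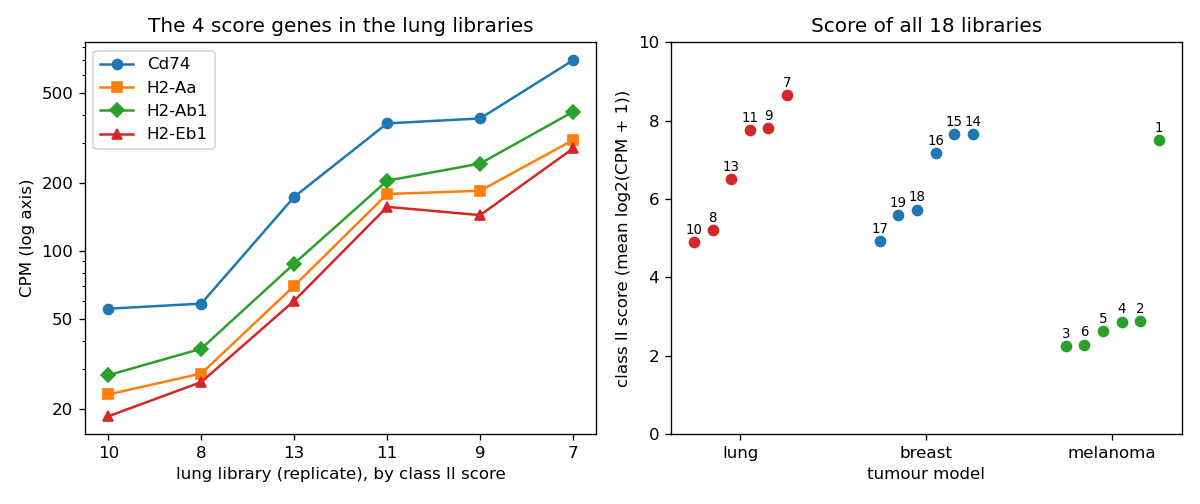
Left, CPM (log axis) of the 4 score genes in the 6 lung libraries, ordered by score on the x axis. Right, the score (mean log2(CPM + 1)) of all 18 libraries by tumour model, 1 point a library with its replicate number: lung runs from 4.90 to 8.65, and melanoma replicate 1 lies at 7.50, above its 5 others at 2.25 to 2.88.

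The score genes ran together. Cd74 was read at 55.6, 58.6, 174, 367, 386 and 699 CPM in replicates 10, 8, 13, 11, 9 and 7. H2-Aa, the alpha chain of the I-A molecule, was at 23.2, 28.7, 70.3, 179, 185 and 310.1 CPM. Both were lowest in replicates 10 and 8, with a jump to 13 and another to the last 3. H2-Ab1, its beta chain, was at 28.3, 37.0, 88.1, 205, 244 and 414 CPM. H2-Eb1, the beta chain of the I-E molecule, was at 18.6, 26.3, 60.3, 157, 144 and 285 CPM. The mean of the 4 others was 7.12 to 7.28 times that of the 2 lowest for each of the 4 genes. As these are bulk tissues, more cells with class II RNA and more of it per cell cannot be told apart.

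Totals of the lung libraries lay between 12070005 and 14533877 counts, with the lowest in replicate 13, one of the 4 others. Another property of the libraries did move with the score. The slope of log2 CPM on transcript length, relative to the mean of the model, was 0.156 and 0.120 per doubling of length in replicates 10 and 8, 0.005 in 13, and -0.054, -0.113 and -0.114 in 11, 9 and 7. Long transcripts thus took a larger share of reads in the 2 lowest libraries. In breast the high-score replicates 14 to 16 had slopes of 0.093 to 0.137, and 17, 18 and 19 of 0.047, -0.218 and -0.161, so that length ran with the score there and against it in lung. The part of this in single results was not tested beyond the values with the length trend removed, given below.

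Among the 16228 genes that reached a mean of 1 CPM in lung, leaving out the score genes, 413 (2.54%) went with the score: a Pearson r of at least 0.9, no overlap between the 2 lowest and the 4 others, and a mean at least 2-fold higher in the 4. Against the score by the same measures went 50 genes (0.308%). With no condition on fold or r, 3630 genes (22.4%) were higher and 3998 (24.6%) lower in all 4 others than in both lowest. An r of at least 0.9 was reached by 1581 genes (9.74%) and of at most -0.9 by 1552 (9.56%), and the median r of all genes was -0.05. With the length trend removed, 286 went with the score and 17 against it. In that count the fold was taken between means of log2(CPM + 1), not means of CPM. These counts thus differ from the main ones in more than the trend. The log2 differences of Cxcl9, Gbp2, Ciita and H2-K1 were 5.76, 5.22, 2.69 and 1.97 without the trend, against 5.76, 5.26, 2.48 and 2.11 with it. Leaving out replicate 11 gave 623 genes with the score. The count against it moved by over 1.5 times with any lung library left out: it was 18 without replicate 10, 101 without 8, 141 without 13, 115 without 11, 31 without 9 and 27 without 7.

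The other genes of the class II pathway took the same order, less steeply. Of 13 listed genes 12 were measured and 11 reached 1 CPM, of which 8 went with the score (median r 0.95, median log2 difference 1.30, against -0.01 over all genes). H2-DMa, a chain of the peptide exchanger, was at 17.5, 18.1, 31.8, 53.9, 67.4 and 88.3 CPM. Its partner H2-DMb1 was at 5.54, 8.12, 22.3, 29.0, 39.6 and 61.6 CPM. Both rank the 6 libraries as the score does. Ctss, the protease that trims the invariant chain, was at 292 and 296 CPM in the 2 lowest and 633 to 859 in the others, a ratio of means of 2.50. The co-stimulatory receptor Cd40 had a ratio of 6.57 and Cd86 one of 2.84. Cd80, another co-stimulatory ligand, was at 13.2 to 20.9 CPM with a ratio of 1.29, and the lysosomal protease Lgmn had a ratio of 1.63, so neither met the fold.

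Among the 8 transcription factors of class II genes, Ciita was the one that went with the score. It was at 1.90 and 2.39 CPM in replicates 10 and 8 and at 9.53, 12.5, 19.2 and 31.2 in 13, 11, 9 and 7, a ratio of 8.45. Its r was 0.98 and its Spearman rho 1.00 over 6 libraries, and r was 0.92 over the 4 others, once the 2 farthest from the median score (the 2 lowest) were left out. None of the other 7 factors went with the score. Rfx5, the DNA-binding subunit of RFX, was at 20.2, 23.8, 21.0, 19.7, 20.6 and 21.3 CPM. Nfyb, of NF-Y, was at 43.5 to 47.3 CPM and Creb1 at 40.7 to 52.6 CPM.

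Interferon gamma and its responses spanned a wide range in lung. Ifng had no read in replicates 10 and 8 and was at 0.99, 2.48, 4.61 and 5.82 CPM in 13, 11, 9 and 7. With a floor of 3 counts over the 2 lowest libraries it was at least 29.2-fold higher in the 4 others, a bound that covers counting error only. Irf1, a transcription factor induced by interferon gamma, was at 14.7, 18.6, 134, 158, 309 and 351 CPM, a ratio of 14.3. The receptor chains and kinases did not meet the fold, as the ratios of Ifngr1, Ifngr2, Jak1 and Jak2 were 1.18, 1.24, 0.86 and 1.13. Of the 21 genes listed, 17 reached 1 CPM and 12 went with the score (median r 0.95, median log2 difference 2.76). Irf8, Gbp4 and Gbp6 were listed at 0 in every lung library. As the annotation and counter are not given, this cannot tell a gene without RNA from one whose reads were not counted.

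By the rule for named genes, the 10 largest log2 differences among the 413 were those of Cxcl9, Gbp2b, Gm4841, Gbp2, Tgtp2, Iigp1, BC023105, Ubd, Gm12250 and Acod1. Gbp2, a guanylate-binding protein that acts on membranes of intracellular pathogens, was at 18.9, 23, 466, 584, 1349 and 1347 CPM, a ratio of 44.7. Iigp1, an immunity-related GTPase, was at 15.4, 14.7, 326, 392, 823 and 789 CPM, a ratio of 38.7. The 2 lowest libraries lie close together in both genes and replicates 9 and 7 are level at the top. Gbp2b had 3 reads in the 2 lowest libraries and was at 82.3, 100.2, 260.5 and 256 CPM in the others, a ratio of pooled reads of 1472 (exact 95% counting interval 504 to 7139). In breast Gbp2b was at no more than 0.63 CPM, and in melanoma only replicate 1 had reads of it, at 2.46 CPM. Near-identical members of the Gbp, Tgtp and H2-Q families can share reads, so that single members are uncertain.

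**Figure D2:**
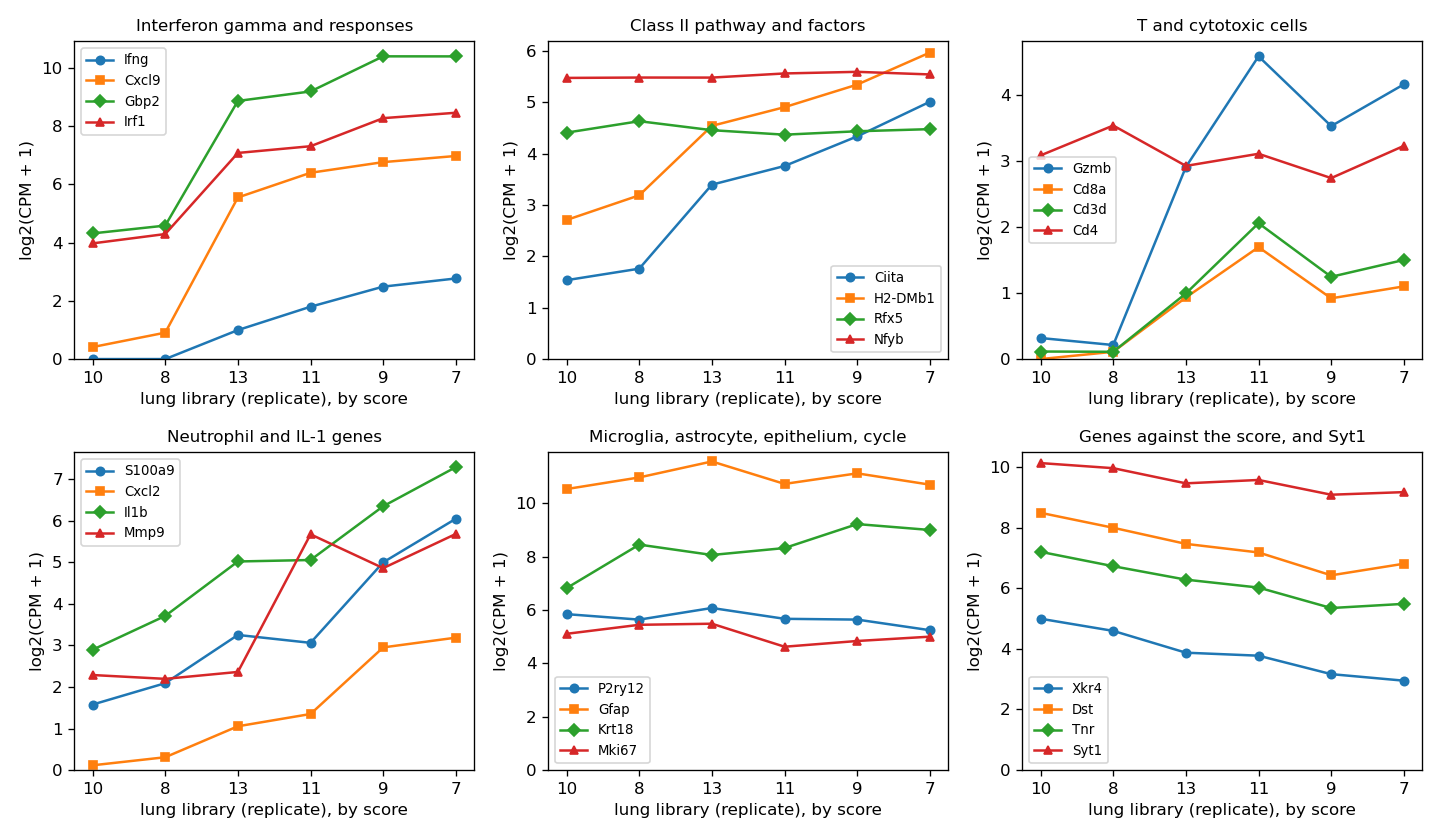
Levels as log2(CPM + 1) in the 6 lung libraries, ordered by score on the x axis, in 6 panels of 4 genes each. Gbp2, Irf1, Cxcl9 and Ciita step up after replicate 8, Gzmb, Cd8a and Cd3d peak in replicate 11, S100a9 and Il1b are highest in 9 and 7, Rfx5 and Nfyb are level, and Dst, Tnr, Xkr4 and Syt1 decline along the order.

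Class I presentation, which shows peptides of the cell's own protein to CD8+ T cells, followed the score in nearly all its genes. Of 22 genes 21 reached 1 CPM and 18 went with the score (median r 0.97, median log2 difference 1.85). H2-K1, a heavy chain, was at 131, 121, 418, 531, 509 and 782 CPM. B2m, the light chain, was at 266, 263, 794, 881, 1037 and 1319 CPM. Each is split cleanly between replicates 8 and 13. Psmb9, a catalytic subunit of the immunoproteasome, had the widest ratio at 11.04, from 6.94 and 6.61 CPM to 39.9, 58.5, 77.7 and 123. The peptide transporter subunit Tap1 had a ratio of 7.52 and Nlrc5, the class I counterpart of Ciita, one of 6.01. The chaperones Calr, Pdia3 and Canx, which serve all glycoproteins, had ratios of 1.38, 1.46 and 0.98.

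Genes of the type I interferon response were also higher in the 4 others, by smaller ratios. All 23 reached 1 CPM and 17 went with the score (median log2 difference 1.38). In 22 of them the 4 others were all above both lowest, against 22.4% of all genes. Zbp1, a nucleic acid sensor, was at 9.42, 10.4, 50.04, 61.3, 86.1 and 109 CPM, a ratio of 7.73. Ifit1 and Rsad2, antiviral effectors, had ratios of 2.60 and 2.07, and Irf7 one of 3.44. Many genes of this list respond to interferon gamma as well, so the list does not separate the 2 interferon types.

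T cell genes were at low levels. Of 22 genes 13 reached 1 CPM and 4 went with the score: Cd2, Lck, Lat and Icos. Cd8a had 1 read in the 2 lowest libraries and was at 0.91, 2.25, 0.89 and 1.15 CPM in 13, 11, 9 and 7. The ratio of its pooled reads was 31.9 (exact 95% counting interval 5.53 to 1278). Cd3e, a chain of the T cell receptor complex, had 2 reads in the 2 lowest and was at 0.25, 0.54, 0.41 and 1.30 CPM in the others. Cd4 overlapped between the sides, at 7.52, 10.7, 6.63, 7.67, 5.71 and 8.42 CPM. Microglia and macrophages can also make Cd4 RNA.

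Cytotoxic genes were higher in the 4 others but departed from the order of the score within them. Gzmb, granzyme B of killer cells, was at 0.25, 0.16, 6.55, 23.2, 10.6 and 16.99 CPM, a ratio of 70.4. Gzma had 3 reads in the 2 lowest and was at 4.72, 14.7, 5.64 and 8.49 CPM. Gzmb, Gzma, Cd8a and Cd3d were each highest in replicate 11, the highest but 2 by score. The r of Gzmb was 0.95, its rho 0.77, and its r 0.73 over the 4 others alone. Of 14 genes 8 reached 1 CPM and 4 went with the score. Among checkpoint genes Cd274, the ligand PD-L1, was at 5.37, 6.21, 28.3, 37.2, 79.3 and 94.0 CPM. Its receptor Pdcd1 was at 0.25, 0.40, 1.24, 3.02, 1.58 and 2.07 CPM, again highest in 11. Of 10 checkpoint genes 8 reached 1 CPM and these 2 went with the score.

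Chemokines of inflammation were higher in the 4 others. Of the ligands of CXCR3, which draws effector T cells, Cxcl9 was at 0.33, 0.88, 45.9, 83.4, 108 and 125 CPM, a ratio of 150.1. Cxcl10 and Cxcl11 had ratios of 6.84 and 23.2. The monocyte attractants had ratios of 6.80 for Ccl2, 9.56 for Ccl7 and 40.2 for Ccl8. Of 18 chemokines 17 reached 1 CPM and 11 went with the score (median log2 difference 1.63). Cxcl12 and Cx3cl1, made at rest by stromal cells and neurons, had ratios of 0.70 and 0.79.

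Myeloid genes were mixed. None of the 11 homeostatic microglia genes went with the score: P2ry12, a purinergic receptor, was at 56.6, 48.9, 66.6, 50.02, 49.0 and 37.0 CPM. Of 17 disease-associated microglia genes 3 did, namely Tyrobp, Cst7 and Clec7a, with ratios of 2.27, 5.07 and 6.17. Of 13 genes of border macrophages and monocytes 12 reached 1 CPM and 4 went with the score. These were the monocyte genes Ccr2, Ly6c2, Plac8 and Ms4a4c, while the border macrophage genes Mrc1 and Pf4 had ratios of 0.87 and 1.01. Of 14 dendritic cell genes 10 reached 1 CPM and Batf3 and Ccr7 went with the score. Itgax, the CD11c chain, was at 6.28, 9.39, 7.29, 9.99, 11.7 and 19.4 CPM, and Flt3 and Zbtb46 had ratios of 0.82 and 0.78. Of 12 B cell genes 4 reached 1 CPM and none went with the score.

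Neutrophil and interleukin 1 genes peaked in 2 libraries. S100a9, a neutrophil calcium-binding protein, was at 1.98, 3.26, 8.53, 7.36, 31.0 and 65.3 CPM. Il1b was at 6.45, 12.1, 31.5, 32.3, 80.6 and 156 CPM, and the neutrophil chemokine Cxcl2 at 0.08, 0.24, 1.08, 1.55, 6.74 and 8.11 CPM. In each the step from 11 to 9 is wide, where the score moved from 7.75 to 7.81. The defining neutrophil gene Ly6g had at most 0.08 CPM in any lung library. Of 13 neutrophil genes 8 reached 1 CPM and S100a9, Mmp9 and Il1r2 went with the score. Of 12 complement genes 10 reached 1 CPM and C1qa, C1qb, C3 and Serping1 did. Of 16 cytokine and NF-kB genes 15 reached 1 CPM and Il1b and Il6 did.

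**Figure D3:**
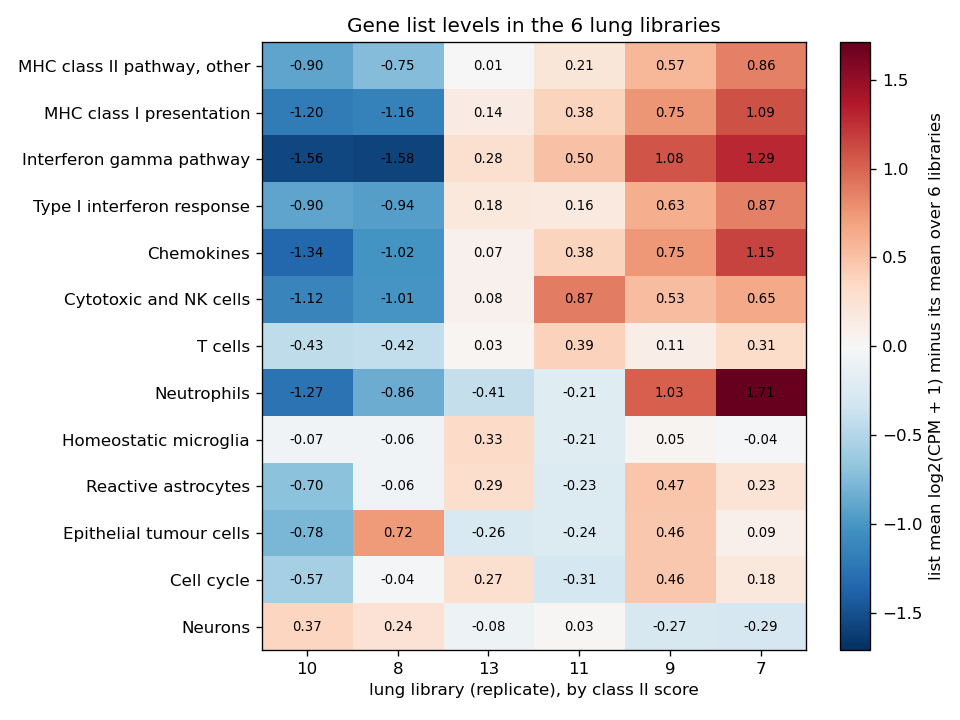
Mean log2(CPM + 1) of each gene list (rows) in each lung library (columns, ordered by score), as the difference from the list's mean over the 6 libraries. The interferon gamma list runs from -1.56 and -1.58 in replicates 10 and 8 to 1.29 in replicate 7, cytotoxic genes peak at 0.87 in replicate 11, neutrophil genes at 1.71 in replicate 7, and epithelial genes at 0.72 in replicate 8.

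Tumour and cycle genes did not take the order of the score. Of 15 genes of epithelial tumour cells, 11 reached 1 CPM and none went with the score. Krt18, a keratin, was at 112, 350.1, 267, 320.1, 598 and 513 CPM, lowest in replicate 10 but within the range of the others in replicate 8. The list took 0.0574% and 0.122% of reads in replicates 10 and 8 and 0.0983% to 0.172% in the other lung libraries, against at most 0.0241% in breast and 0.00115% in melanoma. Krt7 was at 17.5 CPM in replicate 8 and at no more than 2.06 in the others, so the 2 lowest libraries were not alike in tumour genes. None of 20 cell cycle genes went with the score, and Mki67 was at 33.6, 42.7, 43.9, 23.7, 27.7 and 31.1 CPM. The part of tumour content in the other results was not tested.

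Astrocyte genes were likewise spread. Gfap, a filament protein that marks reactive astrocytes, stood at 1488, 2013, 3049, 1700.4, 2238 and 1668 CPM, with r of 0.03. Of 18 reactive astrocyte genes Timp1 alone went with the score, with a ratio of 2.29, and of 14 homeostatic ones none did. No gene of the lists for oligodendrocytes, endothelium and pericytes, fibroblasts, choroid plexus, activity-induced genes or brain regions went with or against the score. With no condition on fold or r, 6 of the 10 brain region genes at 1 CPM or more and 3 of the 7 choroid plexus genes were lower in all 4 others than in both lowest, against 24.6% of all genes, with median log2 differences of -0.35 and -0.57. The part of tissue makeup in the other results was not tested. Col3a1 was at 43.7, 12.6, 20.5, 371, 68.9 and 228 CPM, so that fibroblast collagens were high in replicates 11 and 7.

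Neuronal genes were lower in the 4 others by less than 2-fold. Of 13 genes 12 reached 1 CPM and none met the 2-fold rule (median log2 difference -0.49). Of the 12, 10 were lower in all 4 others than in both lowest, against 24.6% of all genes. Syt1, the calcium sensor of synaptic vesicles, was at 1123, 999, 706, 763, 544 and 577 CPM. The length trend given above runs the same way: without it the log2 difference of Map2, a dendrite protein, was -0.42 in place of -0.65, and that of Gad2, which makes the transmitter GABA, -0.36 in place of -0.56. Snap25, a defining neuron gene, was at 1524 to 2005 CPM in every lung library, as the label of brain tissue implies.

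The 50 genes against the score, a count that ran from 18 to 141 with 1 lung library left out, were long. Their median transcript length was 11157.5 bases, against 3201 for all genes and 2092 for the 413 with the score, and 34 of them lay in the decile of genes with the longest transcripts. Over all genes the median log2 difference ran from 0.37 in the shortest decile to -0.45 in the longest. By the rule for named genes the largest were Xkr4, Dst, Kcnq3, Zbtb20, Tnr, Cntnap5b, Pclo, Exph5, Gm1043 and Fat3. Xkr4, of a family of membrane lipid scramblases, was at 30.9, 23.2, 13.7, 12.7, 7.98 and 6.73 CPM. Dst, a giant linker of the cytoskeleton, was at 359, 255, 176, 144, 85.2 and 111 CPM. Tnr, an extracellular matrix protein, was at 147, 105, 77.1, 64.1, 39.8 and 43.8 CPM. The 2 lowest libraries do not overlap the others in any of the 10.

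**Figure D4:**
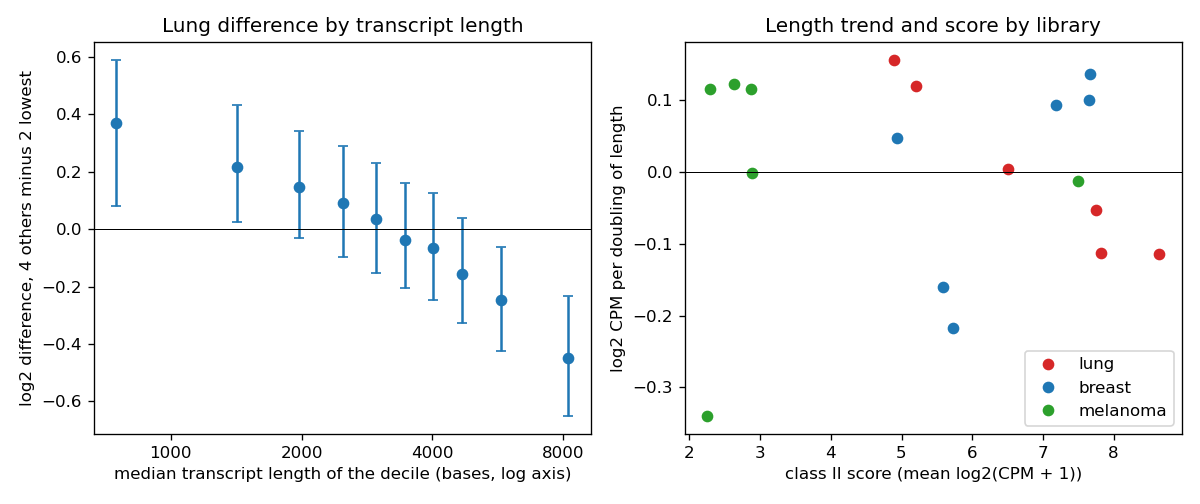
Left, median log2 difference in lung (4 others minus 2 lowest, bars from the lower to the upper quartile of genes) by decile of transcript length (log axis): it declines from 0.37 to -0.45. Right, the slope of log2 CPM per doubling of transcript length against the score, 1 point a library: it declines with the score in lung, while the 3 high-score breast libraries lie at 0.093 to 0.137.

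The score's relations were then tested where the choice of lung libraries played no part. In the 12 breast and melanoma libraries, each gene's log2 change per unit of score was fitted with edgeR's quasi-likelihood test, with the model as a term and Benjamini-Hochberg adjustment over 17170 genes. Here 218 genes (1.27%) rose and 3 (0.0175%) fell with the score at an adjusted p under 0.05. This rests on melanoma replicate 1: without it 2 genes rose (0.0116%), Cd8a and Cxcl9, and none fell, while at an unadjusted p under 0.05 there were 556 up and 523 down in that fit of edgeR. In breast alone 4 rose (0.0233%) and none fell, with 1308 up and 1208 down at an unadjusted p. In melanoma alone 68 rose (0.396%). Over the 12 libraries DESeq2 called 306 up and 23 down. Of the 413 genes that went with the score in lung, 409 were tested and 135 rose, which is 33.0% of them and 61.9% of the 218. Their median slope was 0.28 per unit, and 0.03 in breast alone. None of the 50 genes against the score was called by edgeR, and their median slope was 0.06 (0.37 in breast alone).

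Cxcl9 and Cd8a were called both with and without melanoma replicate 1. Cxcl9 rose by 1.28 ± 0.09 (SE) per unit of score, with an edgeR adjusted p of 1.4e-05 that was 0.0402 without melanoma replicate 1. In breast it was at 76.3, 100.4 and 107 CPM in replicates 14 to 16 and at 7.57, 11 and 21.7 in 17 to 19. In melanoma it was at 41.8 CPM in replicate 1 and at 0.16 to 1.10 in the others. Cd8a rose by 1.503 ± 0.11 per unit (edgeR adjusted p 2.2e-05, and 0.00655 without that library). It was at 7.91, 8.20 and 7.60 CPM in breast 14 to 16 and at 0.40 to 0.95 in 17 to 19, with no overlap. In breast alone Cd8a, Ciita, Cxcl9 and Serpina3f were called, with slopes of 1.62, 1.20, 1.33 and 1.52. Serpina3f, a serine protease inhibitor gene, is named because it was called. Ciita was at 9.40, 11.5 and 8.20 CPM in breast 14 to 16 and at 1.04, 2.17 and 1.88 in 17 to 19.

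Over the lists, class I presentation had 14 of 22 tested genes risen, the interferon gamma list 11 of 17, T cells 12 of 20, cytotoxic genes 6 of 10, complement 5 of 10, checkpoint genes 4 of 10, chemokines 4 of 16 and disease-associated microglia 4 of 17. The type I interferon list had 3 of 23 and the other class II genes 3 of 11, namely H2-DMa, H2-DMb1 and Ctss. Of all genes tested 1.27% rose. The median slope of the type I interferon list was 0.35 per unit. It was -0.22 in breast alone and -0.09 without melanoma replicate 1, the opposite direction to lung. Of the class II factors Ciita alone rose. None of the 11 homeostatic microglia, 12 neuron, 10 epithelial or 20 cell cycle genes tested was called. With melanoma replicate 1 left out, no list keeps a called gene other than the T cell list (Cd8a) and the chemokines (Cxcl9). The neutrophil genes S100a8 and S100a9 fell, by 0.73 ± 0.15 and 0.68 ± 0.14 per unit (edgeR adjusted p 0.033 and 0.037), calls that are lost without that library. In breast S100a8 was at 25.5, 20.1 and 45.7 CPM in replicates 14 to 16 and at 94.7, 115 and 53.3 in 17 to 19. Its direction in lung was the opposite, and the difference between models was not tested.

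**Figure D5:**
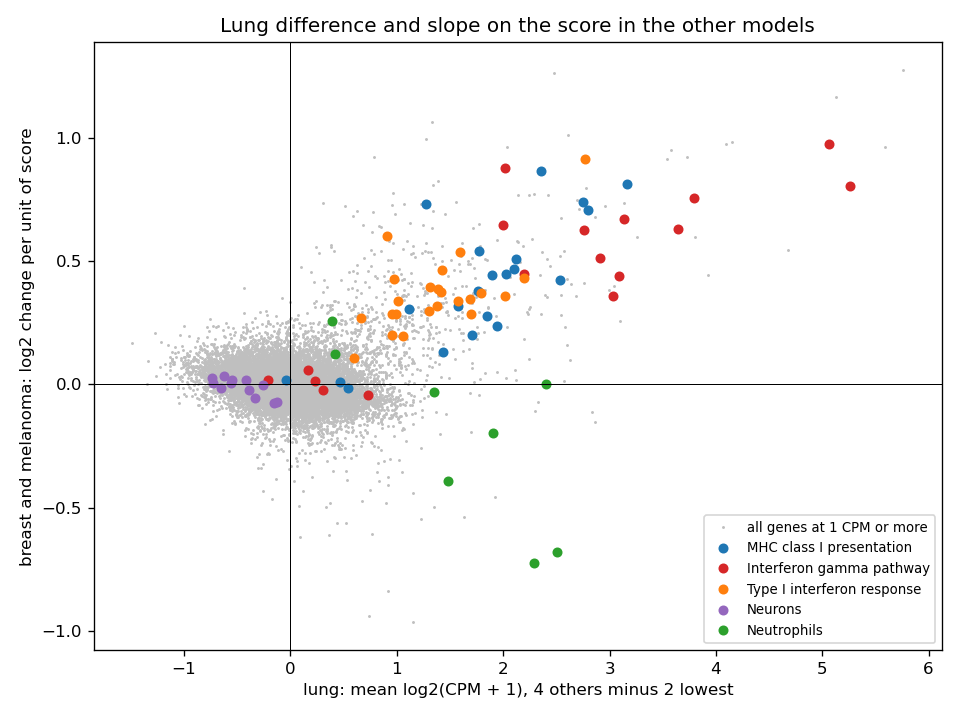
Each point is a gene: the lung log2 difference (4 others minus 2 lowest) on the x axis and the fitted log2 change per unit of score in the 12 breast and melanoma libraries on the y axis, with 5 lists in colour. The medians of the interferon and class I lists lie at the upper right. Neuron genes lie left of 0 near a slope of 0, and S100a8 and S100a9 at the lower right. The median slopes of the interferon gamma, class I and type I interferon lists were 0.51, 0.43 and 0.35. Without melanoma replicate 1 they were 0.32, 0.09 and -0.09.

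As a group the lung libraries were then set against the other models, over all 18 libraries with edgeR and adjustment over all 17174 genes. Against melanoma 2517 genes (14.7%) were higher and 1461 (8.51%) lower in lung, and against breast 1229 (7.16%) and 1919 (11.2%). The score genes were 1.98 to 2.73 higher on the log2 scale than in melanoma, and none passed: the adjusted p was 0.199 for Cd74, 0.136 for H2-Aa, 0.0506 for H2-Ab1 and 0.0916 for H2-Eb1. That of H2-Ab1 was 0.0370 without lung replicate 10, 0.0412 without lung replicate 8 and 0.0153 with DESeq2. The melanoma group here holds replicate 1, with a score of 7.50. Its other libraries lay at 2.25 to 2.88, below the lowest lung library at 4.90. No fit of this comparison left melanoma replicate 1 out, so its part in these p-values was not tested. Against breast the score genes were 0.49 to 0.57 higher, with edgeR adjusted p of 0.73 to 0.77. Ciita did not pass against melanoma (1.85 ± 1.03, edgeR adjusted p 0.240).

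Other genes of the pathway did pass against melanoma. Ifng was 4.30 ± 1.08 higher (edgeR adjusted p 0.0057), Gbp2 3.74 ± 1.06 (0.013) and H2-K1 2.48 ± 0.53 (0.001). Of the 11 other class II genes 10 were higher, as were 10 of 17 interferon gamma genes and 8 of 22 class I genes. Of all genes 14.7% were higher. Lists of other cells and processes were higher in lung as well: 9 of 11 homeostatic microglia genes, 10 of 13 of border macrophages and monocytes, 9 of 10 of neutrophils, 9 of 10 of complement, 16 of 16 cytokine and NF-kB genes and 14 of 18 reactive astrocyte genes. Their part in the pathway's difference was not tested. Against breast 7.16% of all genes were higher in lung and 11.2% lower. No gene of the other class II, interferon gamma, class I, neutrophil or complement lists was higher there. Lower in lung were 3 of 22 class I genes, 2 of 10 of neutrophils, 1 of 11 other class II genes and 1 of 10 of complement. Of 17 interferon gamma genes 0 were lower. In that comparison 1 of 11 homeostatic microglia genes was higher and none lower. Of 13 border macrophage and monocyte genes 2 were higher and 3 lower. Of 16 cytokine and NF-kB genes 2 were higher and 5 lower, and of 18 reactive astrocyte genes 1 and 2. Also lower in lung than in breast were 9 of 23 type I interferon genes, 5 of 16 chemokines and 4 of 20 T cell genes. The score spanned 3.75 within lung, while its means were 6.80 in lung and 6.46 in breast. Lung replicates 10 and 8, at 4.90 and 5.20, lay beside breast 17 to 19 at 4.93 to 5.73.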

How the data were processed

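Poly(A)+ RNA of 18 peritumoral brain tissues was sequenced from directional libraries, per the labels' protocols. The deposited table holds raw counts per mouse gene with no normalization by the authors, and a deposited CPM table, from which whole reads were recovered for 100% of the values of 15366 matched genes (tolerance 0.01), served as an alternative. The build was GRCm39 and bcl2fastq was used, per the submitters' processing notes. Aligner, counter, annotation and strand setting are not given in the sources used here, so a gene and an antisense partner may not be separable.

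Symbols were found for 52083 (94.0%) of 55416 gene IDs, and transcript lengths came from GENCODE M21. Totals were 7366250 to 14533877 counts per library. No library repeated another of its model (smallest chi-square per degree of freedom 2.82), and pairs across models were not compared. The members and the 29 gene lists (404 genes, 403 measured) were chosen with earlier results of these data known. Named genes were the score genes and a set list of 12 (Ciita, Ifng, Cd3e, Cd4, Cd8a, Cxcl9, H2-K1, P2ry12, Itgax, Gfap, Krt18, Mki67). To these were added the 3 members of each list with the largest absolute r and the 10 largest differences each way. The 10 smallest p each way of the slope fit were added too. Other members are named as examples of their lists, after their values were seen. Some genes that the rule picks are not reported here. Lung values are log2(CPM + 1), a pseudocount of 1, with a mean of at least 1 CPM. The quasi-likelihood fits used edgeR 4.0.16 in R 4.3.3, TMM factors and filterByExpr, and were checked on simulated data. Alternatives were DESeq2 1.42.0, limma voom (limma 3.58.1, for the slope fit only), and other scalings, filters and pseudocounts. Each breast and melanoma library was left out of the slope fit. Each lung library was left out of the lung counts and of the comparisons between models, which left out no breast or melanoma library. P-values measure the spread between brains, and intervals and floors cover counting error only.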

Additional observations from a re-analysis of the deposited data

Results flagged for a closer look

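The class II score of melanoma replicate 1 was 7.50, while the 5 other melanoma libraries lay between 2.25 and 2.88. The gap to the nearest of them was 0.881 of the whole range of the 6. About 1 in 20 such groups is picked out by chance, and 31 groups were looked at.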

How the results depend on the processing

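No paired analysis was possible because the groups share no replicate numbers. The gap in the score between the 2 lowest and the 4 other lung libraries was 2.62 to 2.71 under other scalings, pseudocounts, score genes and the deposited CPM table, where of the score genes Cd74 alone is matched, and 1.14 with the other class II genes, always with the same 2 libraries lowest. The 413 genes with the score became 320 to 623 with 1 lung library left out (623 without replicate 11). The 50 against it became 18 to 141, and 29 on TMM-scaled CPM, 23 on the deposited CPM table and 17 with the length trend removed (an alternative added once the data had been seen). The alternative without the length trend also took the fold between means of log2(CPM + 1). In the other models, the 218 genes that rose with the score became 4 with breast alone, 68 with melanoma alone and 2 to 222 with 1 library left out (2 without melanoma replicate 1). The 3 that fell became 23 with DESeq2, 0 with breast alone, 0 with melanoma alone, 6 without the 3 libraries poor in long transcripts and 0 to 4 with 1 library left out. Reads recovered from the CPM table, likewise added, gave 150 and 2. Against breast 1857 genes were higher with only the 12 libraries of the 2 models, and 1035 to 1233 higher and 1398 to 1829 lower with 1 lung library left out. Against melanoma these ranges were 2269 to 2535 and 1215 to 1372. Of 39 named genes called on the slope, 37 lose the call without melanoma replicate 1 and 35 in breast alone. H2-Ab1 against melanoma, at an adjusted p of 0.0506, was called with DESeq2 (0.0153), upper quartile scaling (0.0460), and without lung replicate 8 (0.0412) or 10 (0.0370). No direction of a called value turned. The causes were not tested. Genes under about 3 counts in a library cannot be told from unread.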
